A study of Mus musculus with 2 samples.

Results

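The miR-148/miR-152 and miR-130/miR-301 families were described in adrenal glands from B6CASTF1/J females aged 2 months. Members were taken by gene symbol after the Ensembl identifiers of the count tables were matched to GENCODE M21, and they were 7 of the 2202 miRNA genes in the tables. Mir148a, Mir148b and Mir152 form the miR-148/miR-152 family, and Mir130a, Mir130b, Mir301 (which encodes miR-301a) and Mir301b form the miR-130/miR-301 family. MicroRNA sequencing of total RNA gave 2 libraries of 1 group, biological replicates 1 and 2, with no treatment, no second genotype and no second tissue. B6CASTF1/J is a first-generation hybrid strain. The tissue labels number 2 different females but give both the same donor identifier, so the samples may not differ as independent animals do. SDs measure only the spread between these libraries, and p-values cover counting error only. The RNA came from adrenal gland tissue, so less of a cell type and less of a miRNA per cell cannot be told apart.

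A miRNA guides an Argonaute protein to messenger RNAs, mainly by pairing of its seed, bases 2 to 8, with sites in 3' UTRs, and paired messages are translated less or degraded. miR-148a is known from the liver as a repressor of the cholesterol exporter gene Abca1, and miR-130b and miR-301b are known for the same target. miR-130a and miR-301a are known to repress Pparg, the nuclear receptor that drives fat cell formation, and members of both families have been tied to receptors and Smad proteins of TGF-beta and BMP signalling. The adrenal cortex makes steroid hormones from cholesterol that it takes up through lipoprotein receptors and synthesises itself.

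The mature 3p sequences are shown because the families differ by the register of nearly the same letters. Sequences are from RefSeq on GRCm38.p6, run 5′ to 3′, and carry the seed in capitals.
miR-148a-3p: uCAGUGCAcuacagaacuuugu
miR-148b-3p: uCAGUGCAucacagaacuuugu
miR-152-3p: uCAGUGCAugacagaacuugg
miR-130a-3p: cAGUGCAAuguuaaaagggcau
miR-130b-3p: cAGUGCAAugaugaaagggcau
miR-301a-3p: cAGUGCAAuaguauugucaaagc
The 7 letters of the miR-148/miR-152 seed, CAGUGCA, stand at positions 2 to 8 of miR-148a-3p and at positions 1 to 7 of miR-130a-3p, counted from the 5′ end. The miR-130/miR-301 seed, AGUGCAA, therefore shares 6 bases with it after a shift of 1 base.

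Within a family the differences lay outside the seed. Counted from 1 at the 5′ end with the base of the first-named miRNA first, miR-148a-3p and miR-148b-3p differed by C9U and U10C over 22 positions. miR-148a-3p and miR-152-3p differed by C9U, U10G and U20G over 21 positions. For miR-130a-3p and miR-130b-3p the differences were U11A and A13G over 22 positions. For miR-301b-3p the whole hairpin of its gene is shown, with the family seed in capitals.
Mir301b hairpin: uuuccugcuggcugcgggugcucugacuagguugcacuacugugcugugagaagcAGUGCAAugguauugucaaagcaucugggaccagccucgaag
All 7 hairpins had the same coordinates in RefSeq and GENCODE M21 and held their family's seed once.

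Each count belongs to a whole hairpin gene, without a split into its 5p and 3p arms, and multimapping reads were left out of the gene counts. No member shared a stretch of 20 or more bases with any of the 2201 other annotated hairpins. The longest shared stretch was 17 bases between Mir130a and Mir6389, and 16 between Mir301 and Mir301b and between Mir130b and Mir6368. It was 15 between Mir148a and Mir148b and 12 between Mir152 and Mir148a. An identical stretch ends at the first differing base, so near matches are not covered. Mir301 and Mir301b are such a near match from the seed onward, and whether reads were misplaced between them was not tested. Gene counts totalled 2839732 in replicate 1 and 2280028 in replicate 2, so that 1 count was worth 0.352 and 0.439 CPM, counts scaled to a gene total of 1000000. The limit set by a count of 0 was taken as 3 counts, which is 1.06 CPM in replicate 1 and 1.32 CPM in replicate 2. Intervals and these limits cover counting error only. The libraries differed in blood and muscle miRNAs: the muscle list summed to 953 CPM in replicate 1 against 4.39 in replicate 2, and the red blood cell list to 643 and 14488 CPM.

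The genes lie at 6 loci (GRCm38, mm10). Mir148b is intronic in Copz1 on chromosome 15 (103285125 to 103285221, plus strand), and Mir152 is intronic in the paralogous gene Copz2 on chromosome 11 (96850393 to 96850465, plus strand). Copz1 and Copz2 encode zeta subunits of the COPI vesicle coat. Mir148a lies on chromosome 6 (51269812 to 51269910, minus strand) outside all other annotated transcripts and is 163 kb from the nearest protein-coding gene, Nfe2l3. Each gene of the miR-148/miR-152 family lies on the same chromosome as a miRNA gene of a Hox cluster, Mir148a 960.2 kb from Mir196b, Mir152 533 kb from Mir10a and 585 kb from Mir196a-1, and Mir148b 312 kb from Mir196a-2.

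Mir130b (chromosome 16, 17124061 to 17124142) and Mir301b (17124400 to 17124496) are neighbours on the minus strand, 257 bases apart, in an intron of 2610318N02Rik. Mir301 is intronic in Ska2, a gene of the spindle and kinetochore, on chromosome 11 (87113004 to 87113089, plus strand). Mir130a, on chromosome 2 (84741115 to 84741178, minus strand), is likewise outside other transcripts and lies 990.0 bases from Gm19426. Apart from the Mir130b and Mir301b pair, the other miRNA genes within 200 kb of a member were Mir6963, 65.2 kb from Mir148b with 2 counts in each library, and Gm24332, 187 kb from Mir130a with 0 counts in both.

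In the miR-148/miR-152 family Mir148a was the most abundant gene. It had 1160 counts in replicate 1 and 601 in replicate 2, or 408 and 264 CPM (336 ± 102, SD, n = 2). Mir152 had 512 and 395 counts, or 180.3 and 173 CPM (177 ± 4.99). Mir148b had 275 and 205 counts, or 96.8 and 89.9 CPM (93.4 ± 4.90). The libraries lay close together for Mir152 and Mir148b and apart for Mir148a, which was higher in replicate 1.

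All 3 genes had at least 10 counts in both libraries, the rule for detection here, which 342 of the 2202 genes met. The family held 0.0686% of the gene counts in replicate 1 (exact 95% interval 0.0656 to 0.0717) and 0.0527% in replicate 2 (0.0497 to 0.0557). Within the family Mir148a held 59.6% in replicate 1 and 50.04% in replicate 2, Mir152 26.3% and 32.9%, and Mir148b 14.1% and 17.1%. The ratio of Mir152 to Mir148b was 1.86 (1.60 to 2.16) in replicate 1 and 1.93 (1.62 to 2.29) in replicate 2, with overlapping intervals. That of Mir148a to Mir152 was 2.27 (2.04 to 2.52) and 1.52 (1.34 to 1.73), with intervals that did not overlap.

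The miR-130/miR-301 family was almost entirely Mir130a. Mir130a had 7632 counts in replicate 1 and 6405 in replicate 2, or 2688 and 2809 CPM (2748 ± 86.0), and ranked 49 and 53 of all genes. Mir130b had 274 and 377 counts, or 96.5 and 165 CPM (131 ± 48.7). Mir301 had 101 and 187 counts, or 35.6 and 82.0 CPM (58.8 ± 32.8). Mir130a was at nearly the same level in both libraries, while Mir130b and Mir301 were both higher in replicate 2.

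Mir301b had 8 and 6 counts, or 2.82 and 2.63 CPM, which is above what a count of 0 allows and below the rule for detection in both libraries. With 3 of its 4 genes detected, the family held 0.282% of the gene counts in replicate 1 (0.276 to 0.288) and 0.306% in replicate 2 (0.299 to 0.313). Mir130a made up 95.2% of the family in replicate 1 and 91.8% in replicate 2, Mir130b 3.42% and 5.41%, Mir301 1.26% and 2.68%, and Mir301b 0.0998% and 0.0860%. Neighbouring position did not go with a like level: Mir130b exceeded Mir301b 34.3-fold (17.1 to 80.1) in replicate 1 and 62.8-fold (28.6 to 172) in replicate 2. Whether library preparation captures these hairpins' products equally was not tested.

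**Figure D1:**
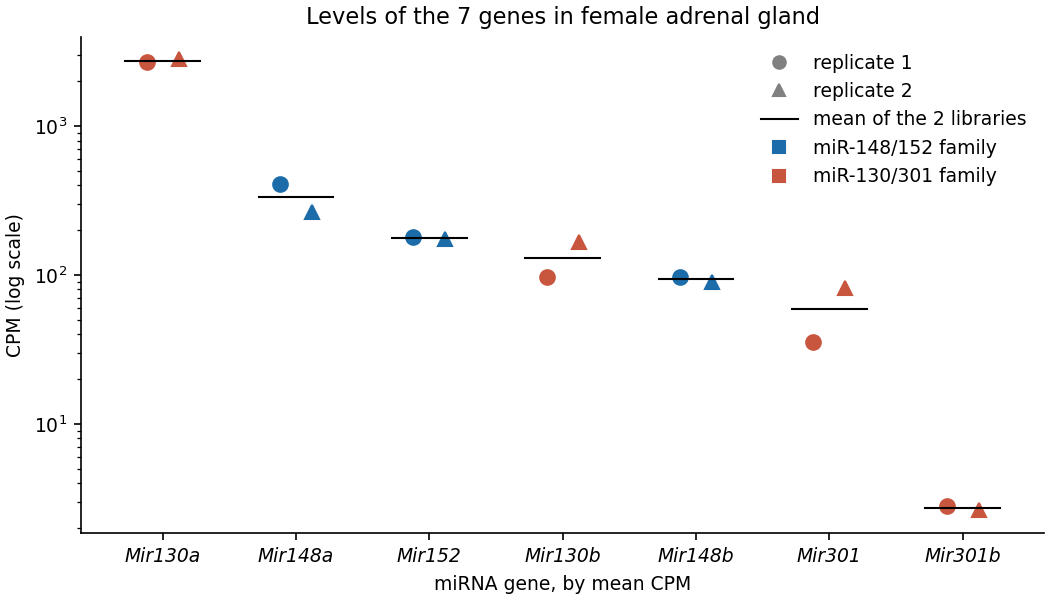
CPM (log axis) of the 7 genes, ordered by mean, in replicate 1 (circles) and replicate 2 (triangles), with the mean as a line. Mir130a stands at 2688 and 2809 CPM, above every other member, and Mir301b at 2.82 and 2.63 CPM, below every other member.

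By mean CPM the order was Mir130a, Mir148a, Mir152, Mir130b, Mir148b, Mir301 and Mir301b. Mir130a exceeded Mir148a, Mir148a exceeded Mir152 and Mir301 exceeded Mir301b in both libraries with SD ranges that did not overlap. Mir152 stood above Mir130b in both libraries, but their SD ranges overlapped. The ratio was 1.87 (1.61 to 2.17) in replicate 1 and 1.05 (0.908 to 1.21) in replicate 2. Mir130b and Mir148b were level in replicate 1, at 274 against 275 counts (ratio 0.996, 0.840 to 1.18). In replicate 2 Mir130b was higher, at 377 against 205 (1.84, 1.55 to 2.19). Mir148b stood above Mir301 in both libraries, again with overlapping SD ranges, at 275 against 101 counts and 205 against 187. That ratio was 2.72 (2.16 to 3.46) in replicate 1 and 1.10 (0.895 to 1.34) in replicate 2. Between the leading genes of the families, Mir130a exceeded Mir148a 6.58-fold (6.18 to 7.00) in replicate 1 and 10.7-fold (9.80 to 11.6) in replicate 2.

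**Figure D2:**
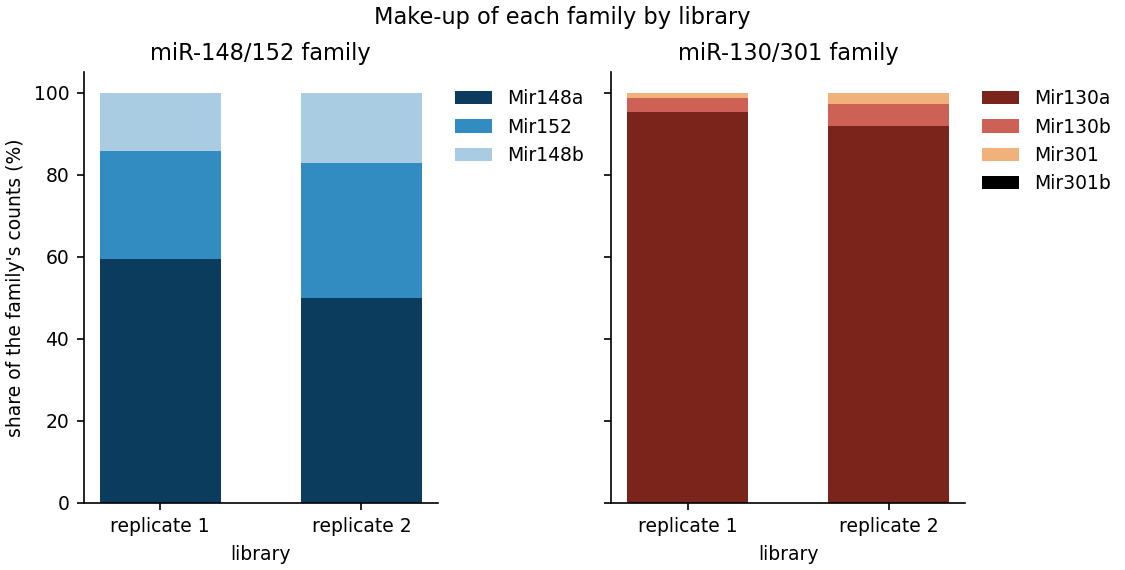
Share of each family's counts (%) held by each of its genes in replicate 1 and replicate 2, stacked to the whole family. Mir148a holds 59.6% and 50.04% of the miR-148/miR-152 counts and Mir130a 95.2% and 91.8% of the miR-130/miR-301 counts, and Mir301b is too small to see.

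Other genes that carry one of these seeds were looked up in the RefSeq table. Outside the 7 members, no gene had the miR-148/miR-152 seed in a mature miRNA and 4 had the miR-130/miR-301 seed, namely Mir130c, Mir721, Mir6341 and Mir6389. All 4 had 0 counts in both libraries, which allows up to 1.06 CPM in replicate 1 and 1.32 CPM in replicate 2. Among the genes found there with either seed, the members thus held all counts, which cover whole hairpins and not the seed-bearing arm alone. RefSeq listed no mature miR-301b-3p, so other genes with these seeds may have been missed.

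The miR-19 genes have a seed shifted by 1 more base, which shares the letters GUGCAA with the miR-130/miR-301 seed. They are shown for that overlap, with the seed in capitals.
miR-19a-3p: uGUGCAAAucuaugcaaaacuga
miR-19b-3p: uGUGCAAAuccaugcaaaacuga
Mir19a had 0 and 2 counts, and Mir19b-1 and Mir19b-2 each had 4 and 0. The counts of the 3 genes were therefore at or near the limit of detection. Low counts do not show that a miRNA was absent, and a loss of miR-19 reads in capture or mapping was not tested. Mir19b-1 and Mir19b-2 make the same mature miRNA, so reads shared between them are missing from these counts.

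The next comparison was between the libraries, replicate 1 over replicate 2. Genes whose counts averaged 10 or more were each given a two-sided exact binomial test, conditional on the library totals, with p-values adjusted by Benjamini-Hochberg over all 369 such genes. A gene was called at an adjusted p under 0.05 and a ratio of at least 2-fold. The test is one of libraries, not of conditions, and knows no error beyond counting. Of the 6 members tested, 1 was called, Mir301, against 69 of all genes tested (18.7%), and 32 of all genes (8.67%) were called in the direction of Mir301, higher in replicate 2. At an adjusted p under 0.05 alone, 4 members passed, Mir148a, Mir130a, Mir130b and Mir301, against 231 of all genes (62.6%). This set moved with the scaling, since Mir130a did not pass with TMM library sizes (adjusted p = 0.30). With median-of-ratios size factors Mir130a passed in the other direction, higher in replicate 1 (log2 ratio 0.10, adjusted p = 8.0e-05). Mir152 passed there too (adjusted p = 0.037). The shares of members called or passing at the main scaling are based on few genes and lie near the background.

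Mir301, at 35.6 CPM in replicate 1 against 82.0 CPM in replicate 2, had a ratio of 0.434 (exact 95% interval 0.337 to 0.555, adjusted p = 1.46e-11). A log2 difference as large as that of Mir301 (-1.21) or larger was found for 51 of the 369 genes. Mir130b had a ratio of 0.584 (0.498 to 0.684, adjusted p = 2.75e-11) and was not called, as it stayed under 2-fold. The ratio of Mir130b to Mir301 within a library was 2.71 (2.15 to 3.44) in replicate 1 and 2.02 (1.69 to 2.42) in replicate 2, with overlapping intervals. Without Mir130a, the family had 383 counts in replicate 1 and 570 in replicate 2, or 135 and 249.997 CPM, a ratio of 0.539 (0.473 to 0.615).

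Mir148a had a ratio of 1.55 (1.40 to 1.71, adjusted p = 2.49e-18) and was not called. Mir130a had a ratio of 0.957 (0.925 to 0.989, adjusted p = 0.0162), and this direction turned with other scalings, at a log2 ratio of 0.030 with TMM library sizes and 0.10 with median-of-ratios size factors. Mir152 (1.04, 0.911 to 1.19, adjusted p = 0.65) and Mir148b (1.08, 0.896 to 1.30, adjusted p = 0.52) did not pass. Mir301b, with too few counts to be tested, had a ratio of 1.07 with an interval of 0.326 to 3.74, which holds the ratio of its neighbour Mir130b. The median log2 ratio was -0.003 over the 6 members tested and -0.07 over all genes tested, and without regard to sign the median was 0.37 over these members and 0.45 over all genes.

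Of the 69 genes called, 37 were higher in replicate 1 and 32 in replicate 2. Median-of-ratios scaling, which shifted all log2 ratios by 0.16, gave 45 and 24. Mir301 was called under both, with a log2 ratio of -1.04 after the shift. Red blood cell miRNAs were higher in replicate 2 like Mir301 and Mir130b, with 2 of 3 genes called: Mir451a was at 469 CPM in replicate 1 against 13557 in replicate 2, Mir144 at 107 and 873 CPM, while Mir486 was at 65.9 and 58.3 CPM. Muscle miRNAs were higher in replicate 1 like Mir148a, with Mir206 at 534 and 2.19 CPM, Mir499 at 288 and 1.75 CPM and Mir208b at 124.7 and 0.439 CPM. Mir133a-1, Mir133a-2 and Mir133b were at 0 in both libraries. Multimapping reads are left out of these counts, so a count of 0 does not show that a miRNA was absent. With the muscle and red blood cell genes left out of the totals, the log2 ratio was -1.22 for Mir301, -0.80 for Mir130b and 0.61 for Mir148a. That change of totals shifts all genes alike, and the part of blood or muscle RNA in these ratios was not tested.

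**Figure D3:**
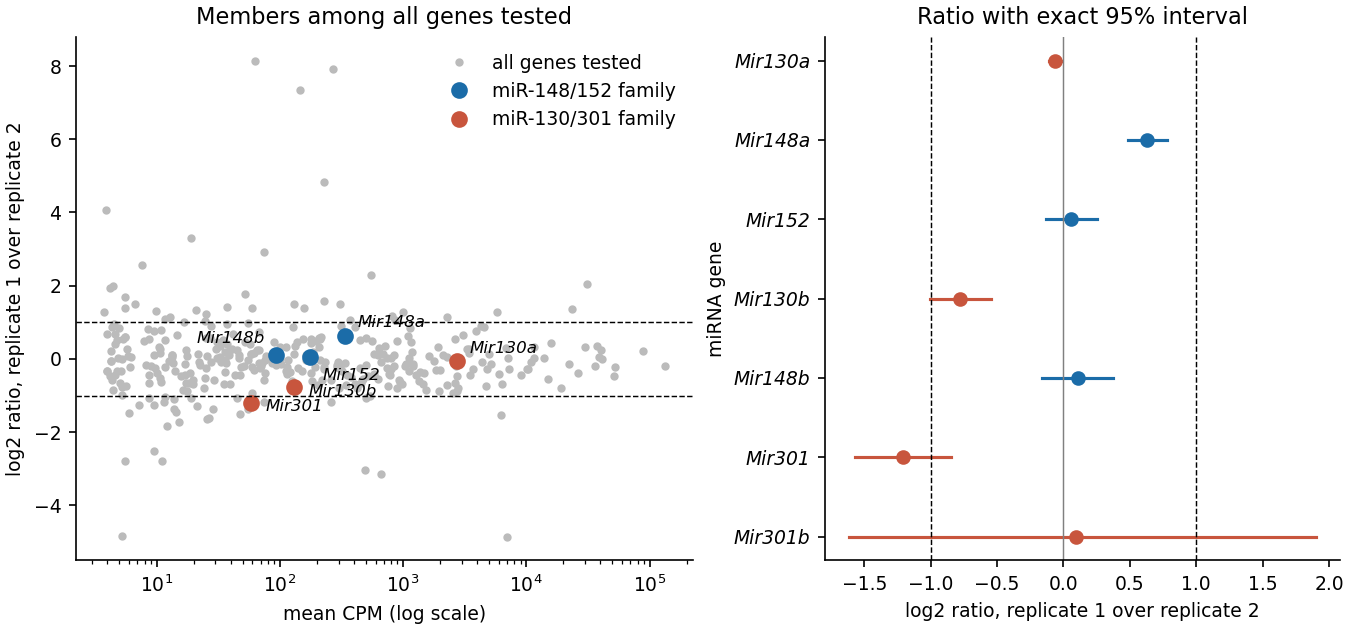
Left, log2 ratio of replicate 1 over replicate 2 against mean CPM (log axis) for all genes tested (grey) and the 6 members tested (coloured by family), with dashed lines at 2-fold, and 1 gene with 0 counts in a library not drawn. Right, the log2 ratio of each of the 7 members with its exact 95% interval, in which the point of Mir301 alone lies beyond 2-fold (log2 ratio -1.21).

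The summed levels of other cell type lists differed less than those of the muscle and red blood cell lists. White blood cell miRNAs summed to 1331 and 1051 CPM. Of 4 tested genes 1 was called, Mir223, higher in replicate 1 (133 and 17.5 CPM). Mir150 was at 660 and 467 CPM, Mir155 at 329 and 354 CPM and Mir142 at 210 and 213 CPM, none of them called. The endothelial gene Mir126a was at 43203 and 59463 CPM, the liver gene Mir122 at 3721 and 2358 CPM, and kidney and gut epithelium genes summed to 170.4 and 115 CPM. Of 7 tested genes of that list 3 were called, all higher in replicate 1, beside 18.7% of all genes tested. Mir200b was at 34.9 CPM in replicate 1 against 3.51 in replicate 2, Mir429 at 13.0 against 2.19 and Mir200a at 6.69 against 1.75. These rest on 8, 5 and 4 counts in replicate 2, below the rule for detection. Not called were Mir194-2 (40.5 and 37.3 CPM), Mir200c (38.7 and 33.8 CPM), Mir192 (31.3 and 30.7 CPM) and Mir141 (4.93 and 4.82 CPM). Smooth muscle and fibroblast genes summed to 23180 and 25529 CPM and had 0 of 5 tested genes called. The neuroendocrine genes, which mark cells of the kind found in the adrenal medulla, summed to 42776 and 40149 CPM, most of it from Mir375 (39421 and 37780 CPM). No miRNA list here defines the adrenal cortex, so the tissue label was checked no further.

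Other miRNAs known for lipid supply were compared with the members. This list holds Mir33, hosted by the sterol regulator gene Srebf2, the lipid regulators Mir27a, Mir27b and Mir185, the liver gene Mir122, and 6 others. Of 11 genes 9 were tested and 4 were called, 2 higher in replicate 1 (Mir223 and Mir128-1) and 2 higher in replicate 2 (Mir185 and Mir144), beside 18.7% of all genes tested. Mir144 is also in the red blood cell list, which summed to 643 CPM in replicate 1 and 14488 in replicate 2, and Mir223 in the white blood cell list. The part of blood RNA in this list's calls was not tested. Under median-of-ratios scaling Mir27b joined those higher in replicate 1, which made 3. The median log2 ratio of the list was 0.63, beside -0.07 over all genes tested. Mir27b (5886 and 3221 CPM), Mir122, Mir27a (1343 and 865 CPM) and Mir185 (136 and 1195 CPM) were its most abundant genes by mean. Mir33 was at 27.1 and 43.4 CPM, below Mir301.

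miRNAs tied to TGF-beta signalling and matrix made a second list, with the Smad7 regulator Mir21a, the collagen-repressing miR-29 genes, the miR-200 genes that repress Zeb factors, Mir145a and Mir204. All 12 genes were tested and 4 were called, beside 18.7% of all genes tested, each higher in replicate 1: Mir21a, Mir200b, Mir429 and Mir200a. The last 3 of these are also the genes called in the kidney and gut epithelium list. Among the 4 genes that averaged 100 counts or more, Mir21a alone was called. With TMM or median-of-ratios scaling Mir29b-1, which makes the same mature miRNA as Mir29b-2, was called too, which made 5. The median log2 ratio was 0.34. Mir21a was at 33612 CPM in replicate 1 against 13012 in replicate 2, Mir29a at 6601 and 7949.9 CPM, Mir145a at 1125 and 1292 CPM and Mir29c at 1146 and 1269 CPM. Of these 4, Mir21a and Mir29a exceeded Mir130a in both libraries.

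Genes most like each member were found as the nearest in log2(CPM + 1) over the 2 libraries, by Euclidean distance, among non-members whose counts averaged 10 or more. This was done for the 6 members averaging 100 counts or more, which leaves out Mir301b. Nearest to Mir130a were Mir615 (2747 and 2774 CPM) and Mir455 (2525 and 2899 CPM). Mir148a lay nearest to Mir668 (405 and 250.4 CPM) and Mir137 (387 and 246 CPM), both also higher in replicate 1. For Mir152 they were Mir700 and Mir196a-2, for Mir148b Mir138-1 and Mir665, for Mir130b Mir326 and Mir664, and for Mir301 Mir677 (31.0 and 79.4 CPM) and Mir7-2 (40.8 and 77.6 CPM). The distances ran from 0.04 between Mir130a and Mir615 to 0.32 between Mir130b and Mir664. With 2 libraries, likeness rests on 2 values per gene.

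Seed matches were searched in 3' UTRs of 8 genes of lipid handling and TGF-beta signalling, whose messenger RNAs were not measured in these libraries. The 8 genes include the known targets Abca1 and Pparg and genes of signalling tied to these families above. Matches in them were therefore likely in advance, and the shares over other 3' UTRs given beside them test no enrichment. For each gene the GENCODE M21 protein-coding transcript with the longest 3' UTR was read on the strand of the message for the 7-letter matches TGCACTG (miR-148/miR-152) and TTGCACT (miR-130/miR-301). The matches overlap in the 8-letter run TTGCACTG, which holds both. Over the 3' UTRs of 20998 protein-coding genes, 12.7% held a miR-148/miR-152 match, 10% a miR-130/miR-301 match and 3.55% the run that holds both. The median length of these 3' UTRs was 962 bases. Shares for single matches at like length, given below, were higher for longer 3' UTRs. No such share was worked out for the run, so 3.55% is no background for the longer 3' UTR of Abca1.

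Of the 8 genes, 4 held a miR-148/miR-152 match, 5 a miR-130/miR-301 match and 2 the run that holds both. The run was found in Abca1 and in Acvr1, which encodes a type I receptor of BMP and activin signalling. Windows of 30 bases around it are shown as the stretches where matches of both families coincide, with the run in capitals and the message strand written as DNA.
Abca1, chr4:53033872-53033901, minus strand: gaggtcttcctTTGCACTGtgtcaagtgtt
Abca1, chr4:53030963-53030992, minus strand: tggatctatttTTGCACTGgaatatctgag
Acvr1, chr2:58447068-58447097, minus strand: gcattccttacTTGCACTGtggcccttaat
The runs began at bases 53 and 2962 of the 3' UTR of Abca1 and base 453 of that of Acvr1.

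Abca1 held 2 matches of each family in 3156 bases, where 24.9% and 19.3% of 3' UTRs within 20% of its length held at least 1. Acvr1 held 1 miR-148/miR-152 match and 2 miR-130/miR-301 matches in 1105 bases (11.1% and 8.72% of those of like length). Pparg held 1 miR-130/miR-301 match in 204 bases (1.16%) and none of the other kind. Smad5, a BMP-activated Smad, held 3 miR-148/miR-152 matches and 1 miR-130/miR-301 match in 4899 bases, a length at which 37.1% and 31.1% of 3' UTRs held at least 1. For the TGF-beta receptor genes, Tgfbr1 held 1 miR-148/miR-152 match in 4154 bases (32.1% of those of like length) and Tgfbr2 1 miR-130/miR-301 match in 6085 bases (37.3%). Neither match was found in the 3' UTR of Scarb1 (779 bases), the HDL receptor gene of steroid-producing cells, or in that of Smad4 (1249 bases). A match describes the letters and shows no binding or regulation in these glands.

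**Figure D4:**
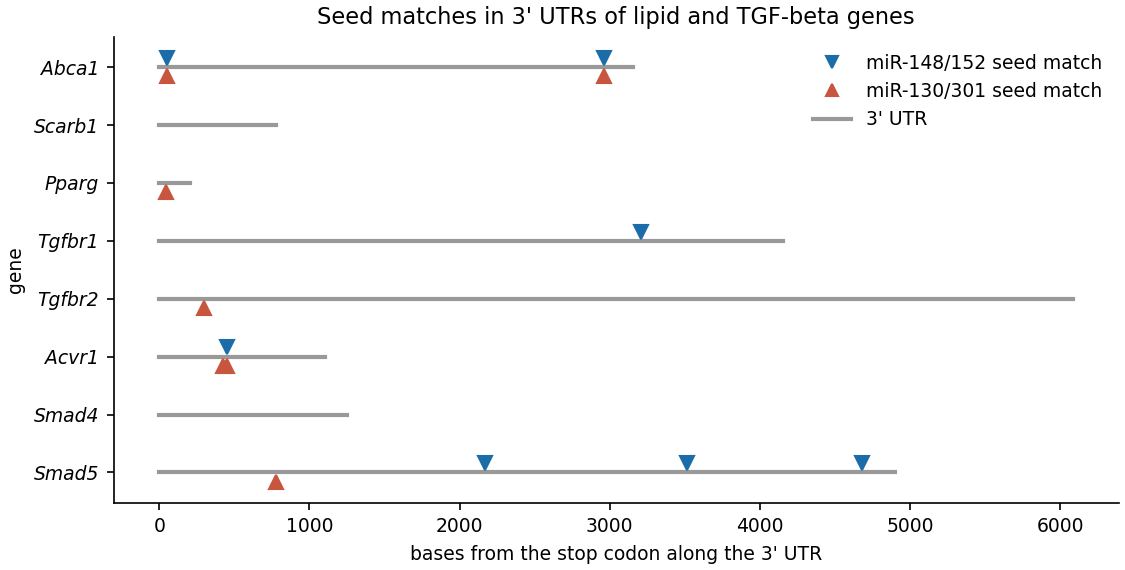
Positions of 7-letter seed matches for miR-148/miR-152 (blue, above the line) and miR-130/miR-301 (red, below the line) along the 3' UTRs of 8 genes, in bases from the stop codon. Blue and red stand at the same place in Abca1 and Acvr1, where the run that holds both occurs, and Scarb1 and Smad4 have no match.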

How the data were processed

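The authors deposited, per library, raw read counts per miRNA gene in 3 columns, unstranded, sense and antisense. Per the deposited file descriptions, reads were placed on mm10 with GENCODE M21 genes. Aligner and counter are not given in the sources used here. Rows that name no gene were left out: unmapped (29.8% of reads in replicate 1 and 39.7% in replicate 2), multimapping (28.8% and 25.3%), outside features (10.8% and 8.6%) and ambiguous (8 and 0 reads). The sense column was used, as the one with the larger total. All 2202 identifiers matched GENCODE M21. Counts were scaled to 1000000 per library (CPM) over totals of 2839732 and 2280028. Detection required 10 counts in both libraries.

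Libraries were compared per gene by exact binomial tests with Clopper-Pearson 95% intervals (SciPy 1.17.1). Alternatives used edgeR 4.0.16 (TMM) and DESeq2 1.42.0 (median of ratios), other filters, folds and the unstranded column. No test was run over samples, since 2 of them cannot give an exact two-sided p below 0.5. All members were named. Other genes were named by shared seed, nearness in level, position within 200 kb and fixed lists. The 8 genes searched for seed matches were chosen after the values were seen, and 1 other gene is not reported here. Members and lists were chosen with earlier results of these data known.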

Additional observations from a re-analysis of the deposited data

Results flagged for a closer look

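Reads on the strand opposite to Mir130a, outside the strand that was analysed, numbered 5 in replicate 1 and 0 in replicate 2, against 7632 and 6405 on its own strand. They were noted because 5 exceeds the 3 counts that a count of 0 allows and no annotated miRNA gene lies on the other strand there. The other 6 members had 0 opposite-strand counts in both libraries. Groups of 2 are too small for a check of outlying samples.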

How the results depend on the processing

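Mir301 was called as higher in replicate 2 under all 7 alternatives (log2 ratio -1.26 to -1.04). The other filters and the lower fold leave its log2 ratio at -1.21 by construction. The rest change only the scaling of its counts, so these calls are not independent support. Mir130a turned to a log2 ratio of 0.030 (TMM) and 0.10 (median of ratios), the construction of which shifts all genes alike. At 1.5-fold, Mir148a (0.63) and Mir130b (-0.78) were called as well, making 3 of the 6 members tested. Of all 369 genes tested, 120 (32.5%) were called at that fold, 65 of them higher in replicate 2. With genes averaging 100 counts or more, which tests 234 genes, 33 were called, 21 higher in replicate 1 and 12 in replicate 2. Without the 10 most abundant genes in the totals, which are smaller by construction, the families held 0.135% (miR-148/miR-152) and 0.654% (miR-130/miR-301). The unstranded column gave 0.342% for miR-130/miR-301, from the same family counts but for 5 reads of Mir130a and so over a smaller gene total. The totals without muscle and red blood cell genes were chosen after seeing the data. No paired analysis was possible because there is 1 group. Leaving out either library leaves 1 value per gene, which is no test of stability: for Mir301, 35.6 CPM without replicate 2 and 82.0 CPM without replicate 1, beside a mean of 58.8. Mir301b was too shallow to be tested.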
